A study of Mus musculus with 18 samples.

Results

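Cultured mouse astrocytes kept without neurons were compared between day 4 and day 2 of serum-free culture. The comparison rests on 6 of the 18 RNA sequencing libraries of the series, 3 from day 2 and 3 from day 4, chosen by their labels and paired by replicate number. The astrocytes came from newborn (P0) mouse cortex, had been in culture for 2 weeks in medium with 10% fetal bovine serum, and were moved to serum-free N2 medium at confluence. No neurons were added to these 6 plates, and their label for treatment reads none. In the other groups, hippocampal neurons from newborn mice carrying the red protein TdTomato were plated on top, and both kinds of plate were also sampled at day 7. All cells were detached with the enzyme mix TrypLE and sorted as TdTomato-negative, with the astrocytes alone used to set the gate, so every library holds cells that went through detachment and sorting. No strain, sex or pooling of animals is given in the sources used here, and the libraries of 1 replicate number share a date.

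N2 is a defined supplement that gives cells insulin, transferrin, selenium, putrescine and progesterone in place of serum. Serum carries growth factors and lipids that act on many genes at once. Immediate early genes such as Fos answer growth factors, calcium and stress within minutes through the transcription factors SRF and CREB and decay quickly. NF-kB drives chemokines and acute phase genes in astrocytes and restrains itself through its inhibitor Nfkbia, while interferons act through receptors and transcription factors that include STAT2 and IRF9 on genes such as Isg15 and Irf7.

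Levels are given as CPM, read counts divided by library size and by a factor per library, the trimmed mean of M values, that sets most genes to a common level. The libraries differed greatly in quality. Replicate 1 of day 2 had 3242459 reads, of which 92.5% fell on a single gene, Entrez ID 19791, for which the tables used here give no symbol. Only 244346 reads were left for all other genes, so that 1 read in it is worth 6.72 CPM and a gene without reads can still stand at up to 20.2 CPM (3 reads). It had a read in 66.2% of the tested genes. The other 5 libraries had 18004319 to 26921766 reads and a read in 94.5% to 98.9% of the tested genes. The list medians below are therefore also given without that library, and pair 1 says little about any gene near or below 20.2 CPM. In addition, 30 genes had no read in 8 libraries of the series, among them replicates 2 and 3 of day 2 and replicate 2 of day 4, so pair 3 crosses that gap and pair 2 does not. These genes are kept apart below.

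Of 26301 genes in the table, 16539 were tested. None passed at an adjusted p under 0.05 in edgeR's quasi-likelihood test over all 18 libraries with the replicate number in the model (0% of the genes tested). The same held without replicate 1 of day 2. At an unadjusted p under 0.05 there were 68 genes with higher and 85 with lower levels at day 4 (0.411% and 0.514%), and 72 and 61 without that library. These are fewer genes than such a threshold gives without any change, so the test was cautious in these data. In counts simulated with the estimated spread, this test recovered 0, 11, 24 and 30 of 50 genes changed 2-, 4-, 8- and 16-fold. None of the simulated 2-fold differences was thus detected. Whether the test was as cautious in the simulated counts was not tested. The median biological coefficient of variation was 0.515. The 3 day 4 libraries lay all above the 3 day 2 libraries for 4.79% of the genes tested and all below for 2.06%. When only the 6 compared libraries entered the fit, 22 genes passed (0.133%), 10 of them outside the set of 30. Among these 10, the 5 passing as lower at day 4 (0.0302% of all genes) were the chemokine Ccl5, the acute phase gene Saa3, the immediate early gene Ier2, the ribosomal protein gene Rplp1 and the antigen-presenting molecule gene H2-T23. With the 5 better libraries alone, 74 genes passed (0.447%), 23 higher and 29 lower outside the set. These 2 fits have 2 and 1 residual degrees of freedom and lean on a spread shared across genes. The second was added after seeing the data, and its contrast comes from pairs 2 and 3 alone, since replicate 1 of day 4 has no partner in it. Below, a gene is said to pass only with the fit named.

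Immediate early genes stood lower at day 4. Of the 26 in the list, all tested, 21 had a lower fitted level, against 43.9% of all genes tested, and the median fitted log2 difference was −0.65, against 0.07 over all genes. Without replicate 1 of day 2 the numbers were 20 of 26 and −0.48. The median was −0.98 without replicate 1 of day 4 and −0.29 without replicate 3 of day 4, and without both libraries of replicate 2 or of replicate 3 it was −0.43 or −0.22. The medians of pairs 1, 2 and 3 were 0.50, −0.61 and −1.08, against 0.71, 0.04 and 0.00 over all genes. In both pairs 2 and 3 together 18 of the 26 were lower, against 26.6% of all genes. None passed in the fit over all libraries. With the 6 compared libraries 1 of 26 passed, and with the 5 better libraries 6 of 26, all as lower (0.175% of all genes passed as lower there): Fos, Fosb, Junb, Ier2, Dusp1 and Zfp36.

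Fos, the DNA-binding partner of Jun in the AP-1 factor, stood at 168, 594 and 369 CPM in replicates 1, 2 and 3 at day 2 and at 258, 248 and 89.3 CPM at day 4. The groups overlapped: pairs 2 and 3 were lower by 1.26 and 2.04 on the log2 scale, and pair 1, with the shallow library, was higher by 0.62. The log2 difference was −0.65 ± 0.56 (SE) over all libraries and −1.66 with the 5 better ones, where the edgeR adjusted p was 0.0048. Fosb, a close relative, stood at 128, 142 and 63.9 CPM at day 2 and at 212, 18.8 and 7.79 CPM at day 4. Replicates 2 and 3 at day 4 were far below every day 2 library, and replicate 1 at day 4 was the highest of the 6. Fosb had an edgeR adjusted p of 1.0e-05 with the 5 better libraries and 0.14 with the 6.

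Ier2, an immediate early nuclear protein gene, moved alike in all 3 pairs. It stood at 74.0, 105 and 23.1 CPM at day 2 and at 27.9, 30.5 and 8.34 CPM at day 4, lower in each pair by 1.40, 1.78 and 1.46 on the log2 scale, although the groups overlapped because replicate 3 was low on both days. Its log2 difference was −1.45 ± 0.78 (SE) over all libraries and −1.59 in the fit on the 6 compared libraries (edgeR adjusted p = 0.0059). Junb, an AP-1 subunit, was lower in 3 of 3 pairs, as were 9.09% of all genes, from 155, 273 and 80.2 CPM to 119, 153 and 34.8 CPM, a log2 difference of −0.72 ± 0.40 (SE). Dusp1, the phosphatase that switches off MAP kinases, went from 94.1, 224 and 123 CPM to 169, 92.2 and 38.5 CPM. Zfp36, which speeds the decay of cytokine mRNAs, went from 6.72, 76.2 and 45.0 CPM to 21.5, 35.4 and 7.20 CPM. Both were lower in pairs 2 and 3 and higher in pair 1, where Zfp36 rests on 1 read at day 2.

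The list was not uniform. Egr1, a zinc finger factor of the same early wave, was lower in pairs 2 and 3 by 0.41 and 1.69 and did not pass in any of these fits (log2 difference −0.35 ± 0.49 SE). Its relative Egr2, which stood at 26.9, 3.65 and 7.23 CPM at day 2 and 6.38, 1.83 and 1.56 CPM at day 4, was lower in 3 of 3 pairs. Fosl2 lay within 0.05 log2 units of no difference in pairs 2 and 3. Jun, whose protein pairs with Fos, differed by −0.28 ± 0.30 (SE). The plot of early response, NF-kB and interferon genes shows Fos, Fosb, Junb, Ier2 and genes described below, library by library.

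**Figure D1:**
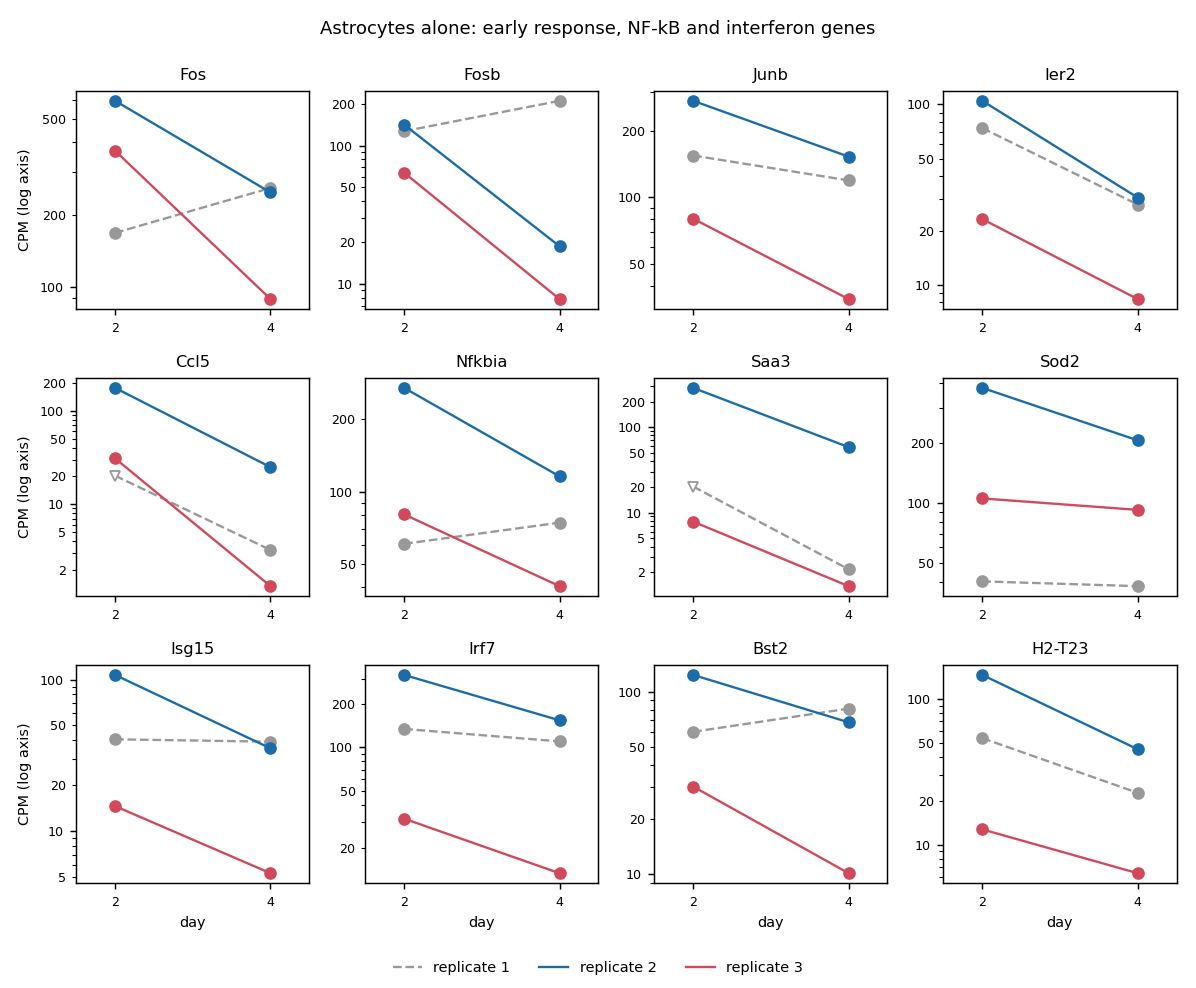
CPM (log axis) of 12 genes in astrocytes alone at day 2 and day 4, with lines joining the libraries of a replicate number and the dashed line marking pair 1, whose day 2 library is shallow; open triangles are libraries without a read, drawn at the level of 3 reads. In pairs 2 and 3 all 12 genes were lower at day 4, while pair 1 went either way. All but Sod2 passed as lower with the 5 better libraries, whose contrast comes from pairs 2 and 3. Their direction in those pairs therefore follows from the choice of genes. Members of the lists that were level or higher, such as Fosl2, Cxcl5 and Ifit3, are not drawn.

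The promoters of 4 genes are shown because their genes belong to these response lists, stood lower at day 4 in all 3 pairs and hold the motif of the list's best-known factor. The difference was slight for Isg15 in pair 1 and for Sod2 in pairs 1 and 3. They are RefSeq reference sequence of build GRCm38.p6 from 250 bases before to 50 after the gene's start, read 5′ to 3′ on the gene's strand, with each match in capitals. The motifs, searched on both strands, were the interferon-stimulated response element TTTCNNTTTC, the kappa B site and the CArG box bound by SRF. The files themselves were counted on mm9, so these coordinates do not belong to the counts.
Isg15 promoter, chr4:156200769-156201068, minus strand, 3 overlapping interferon elements on the opposite strand: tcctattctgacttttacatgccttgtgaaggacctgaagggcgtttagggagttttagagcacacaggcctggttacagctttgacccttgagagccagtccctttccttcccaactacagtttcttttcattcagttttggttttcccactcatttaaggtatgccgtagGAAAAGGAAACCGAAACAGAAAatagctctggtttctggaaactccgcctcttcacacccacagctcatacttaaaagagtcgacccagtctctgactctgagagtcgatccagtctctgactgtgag
Sod2 promoter, chr17:13007589-13007888, plus strand, 1 kappa B site: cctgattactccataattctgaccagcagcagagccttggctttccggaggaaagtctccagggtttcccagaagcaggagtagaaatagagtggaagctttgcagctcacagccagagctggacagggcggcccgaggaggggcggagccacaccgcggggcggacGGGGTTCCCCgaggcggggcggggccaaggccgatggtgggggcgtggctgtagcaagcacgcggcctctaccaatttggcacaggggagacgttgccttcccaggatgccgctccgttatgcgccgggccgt
Egr2 promoter, chr10:67537316-67537615, plus strand, 1 CArG box: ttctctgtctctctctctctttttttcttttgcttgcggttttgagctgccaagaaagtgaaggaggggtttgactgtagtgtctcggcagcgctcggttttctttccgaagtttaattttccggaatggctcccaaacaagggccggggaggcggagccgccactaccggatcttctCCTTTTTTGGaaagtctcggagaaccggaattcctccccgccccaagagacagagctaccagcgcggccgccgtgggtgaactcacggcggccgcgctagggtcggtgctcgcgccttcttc
Srf promoter, chr17:46556113-46556412, minus strand, 2 CArG boxes: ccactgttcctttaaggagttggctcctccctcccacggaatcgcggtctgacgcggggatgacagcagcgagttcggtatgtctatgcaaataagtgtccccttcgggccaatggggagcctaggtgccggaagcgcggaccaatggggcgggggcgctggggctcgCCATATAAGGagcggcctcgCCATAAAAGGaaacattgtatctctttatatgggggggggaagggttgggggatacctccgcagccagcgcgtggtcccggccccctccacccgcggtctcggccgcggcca
Across the lists, the interferon element was in the promoters of 9 of 17 interferon genes with an entry (52.9%), against 3.99% of all 27025 genes with a promoter in the table. The kappa B site was in 7 of 15 of the NF-kB list (46.7%, against 5.14%). The CArG box was in 7 of 18 of the SRF and actin list (38.9%) and in 2 of 19 immediate early genes (10.5%), Egr2 and Zfp36, against 1.81%. A match describes these letters and shows no binding in these cells. The shares count list members whatever their change between the days, and a list of a factor's targets can be rich in its motif by design. They therefore say nothing about day 4 against day 2.

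Targets of SRF and genes of the actin cytoskeleton stood slightly lower. Of 20 tested, 19 had a lower fitted level, with a median log2 difference of −0.28, and 15 and −0.17 without replicate 1 of day 2. The median was −0.43 without replicate 1 of day 4, −0.11 without replicate 3 of day 4 and −0.10 without both libraries of replicate 3. Srf itself went from 53.8, 41.0 and 28.4 CPM to 36.6, 36.0 and 14.9 CPM, lower in 3 of 3 pairs with overlapping groups (log2 difference −0.49 ± 0.37 SE). Acta2, smooth muscle actin, did not share a direction: it stood at 383, 405 and 281 CPM at day 2 and at 678, 357 and 119 CPM at day 4. Pfn1, the actin-binding protein profilin, is in no list and was noticed after its values were seen. It was lower in 3 of 3 pairs and passed with the 5 better libraries (−1.15, edgeR adjusted p = 0.037).

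Genes of the NF-kB, chemokine and cytokine list also stood lower at day 4. All 22 were tested and 20 had a lower fitted level, with a median log2 difference of −0.53, and 19 and −0.76 without replicate 1 of day 2. Without replicate 2 of day 2 it was −0.15, with 16 lower, and −0.17 without both libraries of replicate 2. Pairs 1, 2 and 3 gave medians of 0.47, −0.88 and −0.31, against 0.71, 0.04 and 0.00 over all genes, and 15 of 22 were lower in both pairs 2 and 3, as were 26.6% of all genes. Ccl5 passed with the 6 compared libraries, and Ccl5 and Nfkbia with the 5 better ones. The other 20 did not pass in any of these fits.

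Ccl5, a chemokine that draws leukocytes, had the largest difference of the list. It had no read in replicate 1 of day 2 (which allows up to 20.2 CPM), stood at 175 and 30.9 CPM in replicates 2 and 3, and at 3.24, 24.9 and 1.33 CPM at day 4. Both informative pairs were lower, by 2.81 and 4.46 on the log2 scale. The log2 difference was −3.43 ± 1.18 (SE; edgeR unadjusted p = 0.0092, adjusted p = 1) over all libraries and −3.29 with the 6 compared ones (edgeR adjusted p = 0.00031). Nfkbia, which is induced by NF-kB and traps it in the cytoplasm, went from 60.5, 271 and 80.3 CPM to 74.2, 116 and 40.3 CPM. It was lower in pairs 2 and 3 by 1.23 and 0.99, and its edgeR adjusted p with the 5 better libraries was 0.021.

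Other chemokines differed among themselves. Cxcl1, which attracts neutrophils, stood at 198 and 22.7 CPM in replicates 2 and 3 of day 2 and at 47.9 and 16.3 CPM in the same replicates of day 4. Ccl2, which attracts monocytes, was lower in 3 of 3 pairs, by 1.12, 0.88 and 0.47. Sod2, the mitochondrial superoxide dismutase and an NF-kB target, went from 40.3, 377 and 105 CPM to 38.2, 206 and 92.1 CPM, which is 0.87 lower on the log2 scale in pair 2 and within 0.20 of no difference in the other pairs. Replicate 2 stood above the other replicates on both days for Ccl5, Nfkbia, Cxcl1, Ccl2 and Sod2. Cxcl5, another neutrophil chemokine, was higher in pairs 2 and 3, from 14.4 and 3.33 CPM to 27.5 and 4.91 CPM, and did not pass. Csf1, the growth factor for microglia, and the chemokine Cxcl12 differed by under 0.10 over all libraries.

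Outside that list, several secreted genes of reactive astrocytes went either way. Saa3, an acute phase protein gene noticed after its values were seen, stood at 289 and 7.83 CPM in replicates 2 and 3 of day 2 and at 58.4 and 1.38 CPM in those of day 4. It passed with the 6 compared libraries (−2.29, edgeR adjusted p = 0.0013). Lcn2, which binds bacterial iron carriers and marks reactive astrocytes, went from 316, 1877 and 730 CPM to 289, 828 and 389 CPM, lower in 3 of 3 pairs without passing (−0.90 ± 0.52 SE). Mmp3, a matrix protease, went from 6.72, 206 and 44.5 CPM to 26.3, 52.5 and 17.5 CPM and passed with the 5 better libraries (−1.67, edgeR adjusted p = 0.0023).

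Other acute phase genes stood on the other side. Serpina3n, a protease inhibitor and a marker of reactive astrocytes, went from 26.9, 268 and 87.5 CPM to 22.1, 663 and 213 CPM, higher by 1.31 and 1.28 in pairs 2 and 3, and passed there as higher (edgeR adjusted p = 0.0098). C3, complement component 3, stood at 397, 5549 and 1582 CPM at day 2 and at 550, 7546 and 4197 CPM at day 4. It was higher in 3 of 3 pairs but the groups overlapped widely and it did not pass (0.75 ± 0.79 SE).

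Interferon response genes stood lower to a smaller degree. Of 25 tested, 20 had a lower fitted level, with a median log2 difference of −0.25, and 23 and −0.43 without replicate 1 of day 2. Without replicate 2 of day 2 these became 13 and −0.02, and the median was −0.14 without replicate 1 of day 4, −0.45 without replicate 2 of day 4 and −0.16 without replicate 3 of day 2. Without both libraries of replicate 1 or of replicate 3 it was −0.41 or −0.09. The medians of pairs 1, 2 and 3 were 0.52, −0.33 and −0.51, and in pairs 2 and 3 together 16 of 25 were lower, against 26.6% of all genes. The 3 that passed with the 5 better libraries, all as lower (0.175% of all genes), were Isg15, Irf7 and Bst2, and none of the 25 passed with the 6.

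Isg15, a ubiquitin-like protein attached to others after interferon, went from 40.3, 107 and 14.6 CPM to 38.9, 35.2 and 5.27 CPM. It was lower by 1.61 and 1.46 in pairs 2 and 3 and level in pair 1 (−1.23 ± 0.59 SE; edgeR adjusted p = 0.0041 with the 5 better libraries). Irf7, the factor that amplifies the interferon response, went from 135, 320 and 31.9 CPM to 110, 154 and 13.3 CPM, lower in 3 of 3 pairs. Bst2, also called tetherin, which holds budding viruses at the membrane, went from 60.5, 124 and 30.3 CPM to 81.1, 68.2 and 10.1 CPM. For each of these genes replicate 3 was the lowest on both days, so the groups overlapped and only the pairing by number shows the direction. The upstream factor genes Stat2 and Irf9 differed by 0.00 ± 0.41 (SE) and −0.07 ± 0.33, and Ifit3 was higher in 3 of 3 pairs.

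Among genes that process and present antigen, H2-T23, Psmb10 and Psmb8 are given because they passed in a fit on fewer libraries, and they stand for no group: the list of A1 reactive astrocyte genes, which holds H2-T23 and Psmb8, had 6 higher and 7 lower fitted levels of 13 and a median of −0.01. H2-T23, a non-classical class I molecule, went from 53.8, 146 and 12.7 CPM to 22.7, 45.1 and 6.37 CPM, lower in 3 of 3 pairs by 1.24, 1.69 and 0.99. Its log2 difference was −1.43 ± 0.56 (SE) over all libraries and −1.34 in the fit on the 6 compared libraries, where it passed (edgeR adjusted p = 0.048). Psmb10, a catalytic subunit of the immunoproteasome, went from 26.9, 76.1 and 11.8 CPM to 9.93, 22.4 and 5.78 CPM and had an unadjusted edgeR p of 0.0071 over all libraries. Psmb8, another such subunit, was lower in 3 of 3 pairs by 0.55, 1.32 and 0.99. Both passed with the 5 better libraries and neither in the fit over all.

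Cell cycle genes had mostly lower fitted levels at day 4 in cells that were already confluent. Of 22 genes for the G1/S transition and DNA replication, 17 were lower, with a median log2 difference of −0.46, and of 21 genes for G2 and mitosis 18 were lower, with a median of −0.48. Without replicate 1 of day 2 these were 18 and −0.51 for G1/S and 15 and −0.50 for G2 and mitosis. The G1/S median was −0.11 without replicate 2 of day 2 and −0.24 without both libraries of replicate 2, and the G2 and mitosis median was −0.19 without replicate 3 of day 2. In pair 1 the G1/S median was 0.31, against 0.71 over all genes. Most of these genes were rare: Top2a, the topoisomerase of dividing cells, stood at 13.4, 46.0 and 36.5 CPM at day 2 and at 11.97, 41.0 and 21.7 CPM at day 4, lower in 3 of 3 pairs by 0.17, 0.16 and 0.75. Rrm2, which makes deoxynucleotides, was lower in 3 of 3 pairs by 1.55, 0.52 and 0.98. Among genes of at least 10 CPM the G1/S median was −0.11. Mki67, the usual marker of cycling cells, belongs to the 30 genes without reads in 3 of these 6 libraries, and its passing as higher with the 5 better libraries rests on that gap.

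The abundant cyclin and its inhibitors differed little. Ccnd1, cyclin D1, which growth factors keep high, stood at 2306, 1436 and 914 CPM at day 2 and at 3905, 1461 and 517 CPM at day 4, with one pair higher, one level and one lower (0.08 ± 0.53 SE). The cell cycle inhibitor genes Cdkn1a and Cdkn1b differed by 0.02 ± 0.33 and 0.12 ± 0.66. The retinoblastoma relative Rbl2 was higher in 3 of 3 pairs, by 1.33, 0.23 and 0.28. No member of these lists passed in the fit over all libraries.

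Genes of the cytosolic ribosomal proteins, a list drawn up after values were seen, had 59 of 77 members with a lower fitted level and a median log2 difference of −0.39 (−0.50 without replicate 1 of day 2, −0.23 without replicate 2 of day 2 and −0.58 without replicate 3 of day 4). The medians of pairs 1, 2 and 3 were 0.01, −0.46 and −0.25, against 0.71, 0.04 and 0.00 over all genes. Rplp1, of the ribosomal stalk, went from 430, 245 and 87.0 CPM to 105, 63.1 and 42.2 CPM, lower in 3 of 3 pairs by 2.03, 1.95 and 1.04, and passed with the 6 compared libraries (−1.66, edgeR adjusted p = 0.0081). Rps9 was lower in 3 of 3 pairs by 2.04, 1.15 and 0.52. Ribosomal protein genes have many processed copies in the genome that share reads, and their mRNAs are short. Over all genes with a length, the median log2 difference was −0.03 in the 2923 shortest and 0.13 in the 2919 longest. Set against genes of their own length, the ribosomal median was −0.35, and those of the immediate early, NF-kB and interferon lists were −0.66, −0.53 and −0.31.

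Chaperones for folding stood lower by small amounts. Of 15 heat shock genes 13 had a lower fitted level (median −0.21, and 13 and −0.32 without replicate 1 of day 2). The median was −0.12 without replicate 1 of day 4, −0.10 without replicate 2 of day 2, −0.33 without replicate 3 of day 4 and −0.08 without both libraries of replicate 2. Hsp90ab1, a main cytosolic chaperone, went from 1008, 1089 and 728 CPM to 616, 732 and 483 CPM, lower in 3 of 3 pairs by 0.71, 0.57 and 0.59. Of 17 genes of the unfolded protein response 11 were lower (median −0.21) over all libraries and 16 (median −0.45) without replicate 1 of day 2. Its median was 0.02 without replicate 1 of day 4, −0.36 without replicate 2 of day 4, −0.04 and −0.01 without replicates 2 and 3 of day 2, and −0.14 without both libraries of replicate 2. Calr, calreticulin of the endoplasmic reticulum, was lower in 3 of 3 pairs by 0.34, 0.64 and 0.81. The integrated stress response list had opposite medians in pairs 2 and 3, −0.83 and 0.61.

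**Figure D2:**
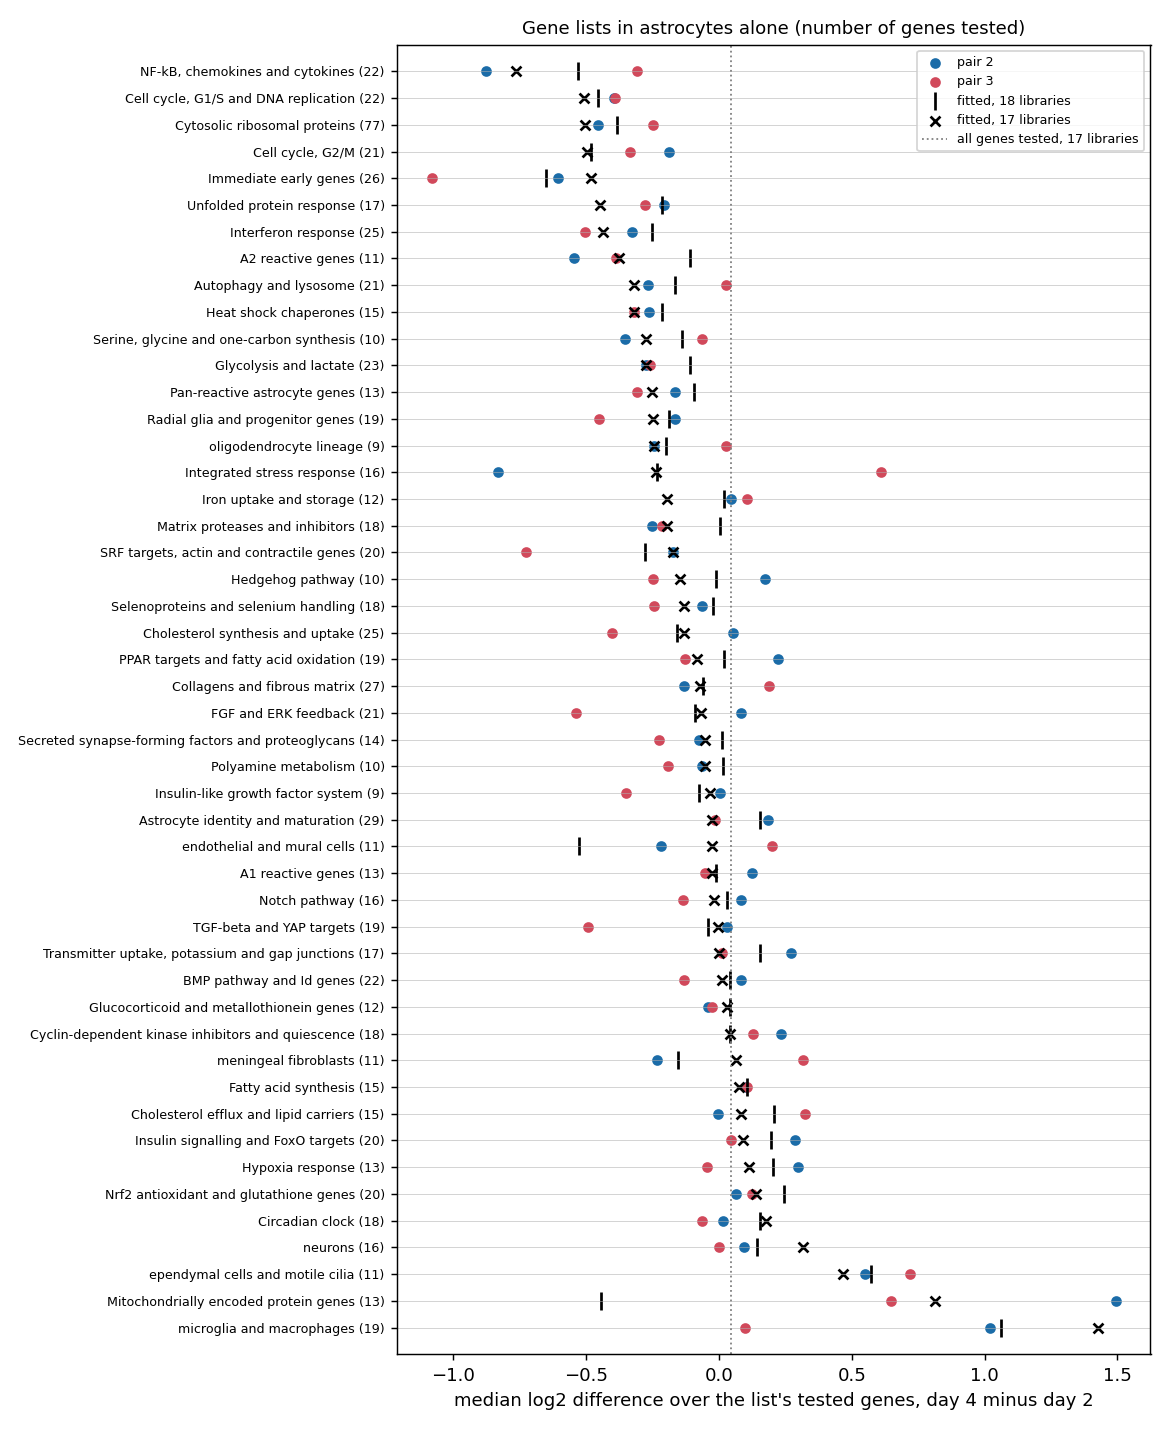
Median log2 difference, day 4 minus day 2, of each gene list in astrocytes alone, in pairs 2 and 3 (dots) and in the fits over 18 and 17 libraries (bar and cross), with the number of genes tested beside the name. The immediate early, NF-kB and interferon lists lie left of 0 in these 4 measures, but their medians in pair 1, which is not drawn, were 0.50, 0.47 and 0.52 (0.71 over all genes), while the mitochondrially encoded genes lie at −0.44 over 18 libraries and at 0.81 over 17.

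Ingredients of N2 medium and of serum act on known genes, and most of these differed little between the days. Both days lay after the move to serum-free medium, so the comparison cannot show how these genes answered that move. Cholesterol synthesis genes, which cells switch on when lipoproteins are withdrawn, had 19 of 25 lower fitted levels with a median of −0.16 (21 and −0.13 without replicate 1 of day 2), and medians of 0.05 and −0.40 in pairs 2 and 3. The median was −0.09 without replicate 1 of day 4, and turned to 0.05 without replicate 3 of day 2 and to 0.06 without both libraries of replicate 3. Insulin signalling and FoxO target genes had 16 of 20 higher fitted levels, against 56.1% of all genes (median 0.20, and 0.09 without replicate 1 of day 2 or replicate 2 of day 4). Without both libraries of replicate 1 or of replicate 3 it was 0.07 or 0.30. Among them Txnip, an inhibitor of thioredoxin and of glucose uptake, went from 20.2, 16.5 and 20.1 CPM to 23.2, 48.2 and 51.9 CPM. Its groups did not overlap, as for 4.79% of all genes in that direction, and it passed with the 5 better libraries (1.45, edgeR adjusted p = 0.0080). The 20.2 CPM of replicate 1 at day 2 are 3 reads.

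The iron, selenium and polyamine lists had medians of 0.02, −0.02 and 0.02, and of −0.20, −0.13 and −0.05 without replicate 1 of day 2. Tfrc, the transferrin receptor, and Odc1, the first enzyme of polyamine synthesis, differed by −0.17 ± 0.68 and 0.29 ± 0.34 (SE). Igfbp2 and Igfbp5, which bind insulin-like growth factors, stood on opposite sides in 3 of 3 pairs each: Igfbp2 went from 1714, 1672 and 1079 CPM to 1293, 1065 and 546 CPM, and Igfbp5 from 3240, 4136 and 13870 CPM to 6694, 7258 and 14400 CPM. Neither passed in these fits.

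Of 20 genes of the Nrf2 antioxidant response 12 had a higher fitted level, a share near the 56.1% of all genes, with a median of 0.25 (11 and 0.14 without replicate 1 of day 2). The median was 0.41 without replicate 2 of day 2 and 0.38 without both libraries of replicate 2. In 3 of 3 pairs 9 of 20 were higher, against 21.7% of all genes, and 7 of 20 were lower in both pairs 2 and 3, against 26.6%. Hmox1, which breaks down haem, went from 222, 108 and 60.0 CPM to 459, 149 and 118 CPM, higher by 1.05, 0.47 and 0.97 (0.85 ± 0.41 SE, edgeR unadjusted p = 0.053). Gclm, for glutathione synthesis, was higher in 3 of 3 pairs by 0.46, 0.60 and 0.76, with an SE of 0.30. Srxn1, which restores oxidised peroxiredoxins, was higher by 0.64, 0.36 and 1.504. None of the 20 passed.

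Messages of the mitochondrial genome depended on the shallow library. Their 13 protein genes summed to 56820 CPM in replicate 1 of day 2 against 6124 CPM in replicate 1 of day 4, while replicates 2 and 3 went from 1793 and 9302 CPM to 4450 and 12210 CPM. The median log2 difference was accordingly −0.44 over all libraries and 0.81 without that library. With the 5 better libraries 5 of 13 passed as higher (0.272% of all genes did), mt-Atp6, mt-Atp8, mt-Co2, mt-Co3 and mt-Nd4l. mt-Atp6, a subunit of ATP synthase, stood at 1116, 6.54 and 132 CPM at day 2 and at 183, 28.9 and 539 CPM at day 4. In pairs 2 and 3 it was higher by 2.13 and 2.02. mt-Nd1, a subunit of complex I, was higher in pair 2 by 1.86 and level in pair 3. mt-Atp8, whose coding sequence overlaps that of mt-Atp6, also passed with the 6 compared libraries (2.08, edgeR adjusted p = 0.0064).

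Some genes that collect ribosomal RNA reads moved with the day as well. Rn28s1, the 28S ribosomal RNA, stood at 28.5 and 48.9 CPM in replicates 2 and 3 of day 2 and at 204, 666 and 163 CPM at day 4, so the day 4 libraries were all higher. Entrez ID 19791 stood at 502 and 492 CPM in those day 2 libraries and at 1685, 5377 and 2184 CPM at day 4. Lars2, whose annotated span picks up ribosomal RNA reads in many libraries, went from 37.0 and 45.3 CPM to 72.2, 236 and 118 CPM. All 3 passed as higher with the 5 better libraries, and all 3 were at their highest in the shallow day 2 library. Reads on these 3 genes therefore differed with the day in the same libraries as the gene groups above. Their part in those results was not tested. The mitochondrial ribosomal RNA mt-Rnr2 took a larger share of reads in replicates 2 and 3 and did not follow the day. Its share went from 8.44% to 11.1% in pair 2 and from 17.3% to 16.5% in pair 3.

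**Figure D3:**
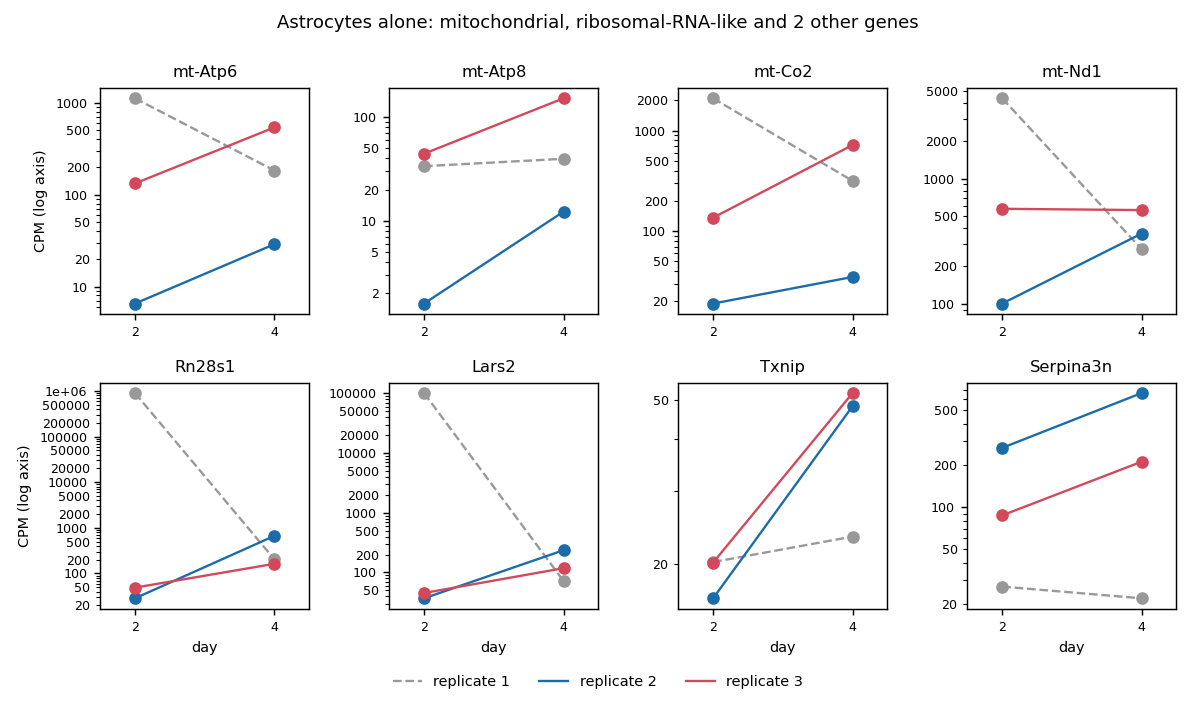
CPM (log axis) of 8 genes in astrocytes alone at day 2 and day 4, with lines joining the libraries of a replicate number and the dashed line marking pair 1. In replicates 2 and 3 all but mt-Nd1 were higher at day 4 in both, while the dashed line of the mitochondrial genes mt-Atp6, mt-Co2 and mt-Nd1 and of Rn28s1 and Lars2 runs downward from the shallow library.

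Genes of motile cilia, the list for ependymal cells, stood higher at day 4. Of 11 tested, 9 had a higher fitted level with a median log2 difference of 0.57 (0.47 without replicate 1 of day 2), and 8 of 11 were higher in both pairs 2 and 3, against 30.4% of all genes. The median was 0.38 without replicate 2 of day 2, 0.26 without replicate 2 of day 4, 0.22 without replicate 3 of day 4 and 0.22 without both libraries of replicate 2. Dnah5, an axonemal dynein, went from 6.72, 6.12 and 35.1 CPM to 8.86, 16.7 and 61.8 CPM, higher in 3 of 3 pairs (0.93 ± 0.55 SE). Rsph4a, of the radial spoke, went from 5.47 and 31.8 CPM in replicates 2 and 3 to 17.2 and 49.0 CPM. Foxj1, the factor that switches on motile cilia genes, did not share this: it stood at 141, 306 and 188 CPM at day 2 and at 145, 291 and 211 CPM at day 4. Outside the list, Cfap54, for the central apparatus of cilia, went from 13.4, 30.9 and 62.7 CPM to 37.9, 61.0 and 128 CPM (1.07 ± 0.40 SE), and Ttll3, a tubulin glycylase of cilia, was higher in 3 of 3 pairs. Cfap54 and Ttll3 passed with the 5 better libraries and no gene of the list did.

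Astrocyte identity showed no shared direction. Of 29 genes tested, 20 had a higher fitted level with a median of 0.15, but without replicate 1 of day 2 these became 12 and −0.03, and the median ran up to 0.31 without replicate 3 of day 2. Gfap, the astrocyte intermediate filament, stood at 60.5, 527 and 1245 CPM at day 2 and at 67.6, 554 and 1396 CPM at day 4, differing far more between replicates than between days (0.05 ± 0.37 SE). Aqp4, the water channel of astrocyte endfeet, went from 74.0, 442 and 1224 CPM to 160, 677 and 1211 CPM. The glutamate transporter genes Slc1a2 and Slc1a3 differed by 0.22 ± 0.56 and 0.24 ± 0.33 (SE), and glutamine synthetase, Glul, by −0.16 ± 0.35. Gja1, the gap junction protein connexin 43, was higher in 3 of 3 pairs by 0.88, 0.37 and 0.56 without passing. S100b had no read in replicate 1 of day 2, which allows up to 20.2 CPM. It stood at or below 3.62 CPM in the other compared libraries. This common astrocyte marker was thus barely detected in those, unlike Gfap, Aqp4, Aldh1l1 and Slc1a3.

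Genes of radial glia and progenitors had 14 of 19 lower fitted levels with a median of −0.19 (−0.25 without replicate 1 of day 2), and 14 of 19 were lower in both pairs 2 and 3. The median was −0.32 without replicate 1 of day 4, −0.12 without replicate 3 of day 4 and 0.02 without replicate 3 of day 2, and without both libraries of replicate 1 or of replicate 3 it was −0.33 or −0.01. Pax6, a factor of radial glia, was lower in 3 of 3 pairs by 0.12, 0.50 and 0.31. The list of BMP pathway and Id genes showed no shared direction. Of 22 tested, 12 had a higher and 10 a lower fitted level, with a median of 0.04 (0.01 without replicate 1 of day 2). Within it, Id1 and Id3, which block differentiation factors and are induced by BMP and by serum, were lower in 3 of 3 pairs. Id1 went from 141, 116 and 80.2 CPM to 55.4, 79.8 and 47.2 CPM, so the groups did not overlap, by a narrow margin (−0.85 ± 0.38 SE; edgeR unadjusted p = 0.040, adjusted p = 1). Nes and Vim, intermediate filaments of immature astrocytes, differed by 0.06 ± 0.34 and −0.20 ± 0.37 (SE).

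Markers of other cell types the cultures could hold were read beside these results. Microglia and macrophage markers summed over 20 genes to 47.1, 150 and 40.6 CPM at day 2 and to 80.8, 218 and 37.5 CPM at day 4. Replicate 2, which had the highest levels of many NF-kB genes, also had the highest microglia sum on both days. In that pair the sum was higher at day 4, and the NF-kB list had a median log2 difference of −0.88. Whether the 2 are linked was not tested. Of the 19 microglia and macrophage genes tested, 13 had a higher and 6 a lower fitted level at day 4, with a median log2 difference of 1.06. Without replicate 1 of day 2 these were 15, 4 and 1.43. The medians of pairs 1, 2 and 3 were 2.26, 1.02 and 0.10. Among genes of this list with at least 10 CPM the median was −0.10. The microglia genes Cx3cr1 and P2ry12 had no read in replicate 1 of day 2, which allows up to 20.2 CPM. They stood at or below 1.06 CPM in the other compared libraries. Tmem119, with 17 reads over the 6 libraries, was too rare to test. Neuronal markers summed to 343, 191 and 466 CPM at day 2 and to 541, 229 and 329 CPM at day 4, mostly from Map2, Stmn2 and Gria2, and Nefl and Slc17a6 had no read in the 6 libraries. Oligodendrocyte lineage markers summed to 363, 194 and 505 CPM at day 2 and to 236, 164 and 272 CPM at day 4, lower in 3 of 3 pairs, chiefly from Olig1, which went from 256, 90.4 and 358 CPM to 110, 76.4 and 146 CPM. In bulk RNA fewer cells of a type and less RNA per cell cannot be told apart. The part of other cells in the differences was not tested.

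Genes were also named by smallest p, in or out of a list, among those with the same direction in 3 of 3 pairs, so that direction comes from the choice. On the lower side these included Mrfap1 (−1.46 ± 0.38 SE, edgeR unadjusted p = 0.0011), whose log2 difference was −0.90 without replicate 1 of day 2, and Ptms, with −2.07 and −0.88. Rplp1 and Rps9 had −1.66 and −1.20, and −1.53 and −0.96 without it. Cst3, the protease inhibitor cystatin C, shows what the shallow library does: it stood at 1311 CPM there against 224 and 106 CPM in the other day 2 libraries, and its log2 difference of −2.44 became −0.85 without it. On the higher side were Ttll3, the receptor gene Adcyap1r1, the natriuretic peptide receptor gene Npr3 and Cfap54. Npr3, which clears natriuretic peptides, went from 20.2, 18.4 and 31.9 CPM to 75.5, 42.6 and 38.0 CPM. Its groups did not overlap, by a narrow margin, as for 4.79% of all genes in that direction. The 20.2 CPM of replicate 1 at day 2 are 3 reads. Adcyap1r1, the receptor for PACAP, stood at 0.62 and 5.77 CPM in replicates 2 and 3 of day 2 and at 5.83, 2.62 and 16.5 CPM at day 4. None passed over all libraries (edgeR adjusted p = 1 for each).

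Astrocytes kept with neurons gave a second look at the same days in 6 other libraries, which share the dates and the replicate numbers but no sample. Among these, replicate 3 of day 4 had a read in only 85.4% of the tested genes, and replicate 2 of day 2 in 88.3%. No gene passed there either (0% of 16539 genes). The NF-kB list had a median log2 difference of −0.60, with 20 of 22 lower, the interferon list −0.60 with 24 of 25 lower, and the immediate early list −0.54 with 24 of 26 lower, against 48.9% lower of all genes. Ccl5 stood at 15.9, 85.2 and 16.97 CPM with neurons at day 2 and at 1.55, 16.8 and 0 CPM at day 4 (−3.61 ± 1.20 SE), beside −3.43 ± 1.18 in astrocytes alone. Fosb differed by −1.57 ± 0.86 (SE) with neurons and Irf7 by −1.05 ± 0.55. The cilia list had a median of 0.83 and the Nrf2 list 0.32.

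Astrocyte identity genes had 26 of 29 higher fitted levels with neurons (51.1% of all genes; median 0.36), beside 20 of 29 and 0.15 alone, or 12 of 29 and −0.03 without the shallow library. The unfolded protein response had a median of −0.14 with neurons beside −0.21 alone, or −0.45 without that library. The test of the difference between the 2 changes passed for no gene in edgeR (0%; 132 and 47 genes at an unadjusted p under 0.05 in either direction), so no change is shown to differ between astrocytes alone and with neurons. The smallest p values of that test belonged to Nutf2-ps2, Lars2, Rn28s1 and Entrez IDs 19791 and 735254. Lars2, Rn28s1 and ID 19791 rest on the shallow library.

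**Figure D4:**
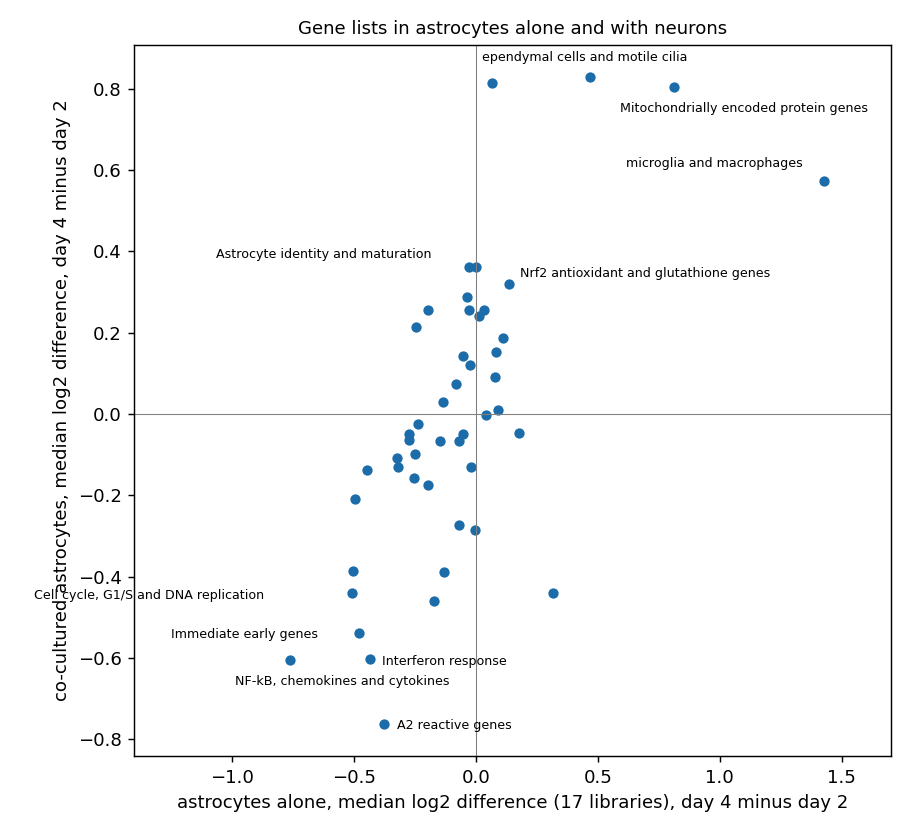
Median log2 difference, day 4 minus day 2, of each gene list in astrocytes alone (horizontal axis, fit over 17 libraries) against co-cultured astrocytes (vertical axis), 1 point a list, with some lists named. The NF-kB, interferon and immediate early lists lie at −0.76, −0.43 and −0.48 alone and at −0.60, −0.60 and −0.54 with neurons.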

How the data were processed

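Astrocyte RNA was depleted of ribosomal RNA and made into libraries with low-input SMARTer kits, per the labels' protocols. The authors deposited whole-number read counts per Entrez gene. Subread and featureCounts with build mm9 were used, per the submitters' processing notes, without versions. Whether counting used strand is not given in the sources used here. Overlapping, antisense and near-identical genes can therefore share reads. Another 17 columns, of correlations between libraries, were not used.

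In R 4.3.3, counts were fitted with edgeR 4.0.16 (6 group means plus replicate number, 18 libraries, TMM, filterByExpr, quasi-likelihood F test, Benjamini-Hochberg adjusted p under 0.05). Pair differences are log2 CPM with a prior count of 2. Symbols came from RefSeq for 24191 of 26301 IDs and from a second table for 15. Members, the 47 lists and the settings were chosen with earlier results of these data known. Named genes were the 12 per direction with the smallest p, at least 5 CPM on average and one direction in 3 pairs, up to 4 such genes a list, the 5 smallest p for the difference, and 43 fixed genes (Hmgcs1 had no reads). Genes passing only in the fits on 6 or 5 libraries were named after their values were seen, as were the ribosomal list and further list members given as contrasts.

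The labels give all libraries of a number 1 date, and deviations from group means correlated at 0.198, 0.357 and 0.343 within numbers, against −0.238 to −0.0566 between them. Nothing in the labels makes the replicates separate animals, and a p-value here refers to variation among cultures only, which may be technical. Replicates of each group differed by more than sampling noise. Tested on simulated data with 200 changed genes among the 16539, the fit called 67 genes, 2 of them falsely, and recovered 0, 11, 24 and 30 of 50 at 2-, 4-, 8- and 16-fold. Alternatives were no block, other scalings, filters and thresholds, DESeq2 1.42.0, limma 3.58.1 (voom), robust fitting, fewer libraries and leaving out each replicate.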

Additional observations from a re-analysis of the deposited data

How the results depend on the processing

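Every count of passing genes was 0 in the fit over all libraries. For astrocytes alone, 22 genes passed with only the 6 compared libraries (12 of them in the set of 30 genes without reads), 74 with 5 of them (added after seeing the data; 22 in the set, and all 22 genes of the first fit among the 74), 16 without the shallow library and replicate 1 of co-culture at day 7, which had a read in 83.2% of the tested genes (all 16 in the set), and 1 with DESeq2, Entrez ID 19791, which rests on the shallow library. For co-cultured astrocytes 54 passed with only the compared libraries and 7 with DESeq2. For the difference between the 2 kinds of culture 14 passed without those 2 libraries, 2 with only the compared libraries, 14 with these but without replicate 1 of day 2 alone (added) and 1 with DESeq2, and all but the last of these genes were in the set. Leaving out replicates gave 0 to 4 passing genes for astrocytes alone and for the difference, the 4 being in the set, and 0 for co-culture. Without the replicate block 0 genes passed in each comparison, with 43 higher and 78 lower at an unadjusted p for astrocytes alone, and limma with voom also passed 0. The other scalings and filters passed 0 as well. Why the smaller fits pass more genes was not tested.

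The medians of the immediate early, NF-kB, interferon, SRF, both cell cycle, heat shock, ribosomal, cilia, Nrf2, hypoxia and insulin lists kept their sign in all 28 settings. The immediate early median ran from −0.98 to −0.22, NF-kB from −0.84 to −0.15, interferon from −0.47 to −0.02, and cilia from 0.22 to 0.79. The smallest NF-kB and interferon shifts came from leaving out replicate 2 of day 2, which holds the highest levels of both. The microglia median was 1.06, and −0.10 among genes of at least 10 CPM.

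Limits: 3 pairs, of which 1 rests on a library of 244346 usable reads, recovered none of the simulated 2-fold changes, and intervals of single libraries cover counting error only.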

Other observations

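Collagens and matrix genes, not described above, showed no shared direction in astrocytes alone: 17 of 27 had a lower fitted level at day 4, with a median log2 difference of −0.06 (15 and −0.07 without replicate 1 of day 2). Fn1, fibronectin, was higher in 3 of 3 pairs by 0.54, 0.69 and 0.13, while Col5a2 was lower by 0.49, 0.20 and 0.66 and Lamc1, a laminin chain, by 0.10, 0.54 and 0.32. Clock genes had 13 of 18 higher fitted levels and a median of 0.15 (11 and 0.18 without that library), and Per2 and Dbp, whose levels follow the time of day, differed by −0.01 ± 0.65 and −0.04 ± 0.54 (SE). Glycolysis genes split: Aldoa was lower in 3 of 3 pairs by 1.01, 0.73 and 0.49, and Pgk1 was higher by 1.29, 0.27 and 1.34, with no gene of the list passing in any fit described.

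The gap of 30 genes reaches well known astrocyte and housekeeping genes. Ntrk2, the receptor for BDNF and a well expressed astrocyte gene, had 11741 and 32135 reads in replicates 1 and 3 of day 4, 53 in the shallow library, and none in replicates 2 and 3 of day 2 and replicate 2 of day 4. Hnrnpk, an RNA-binding protein that nearly every cell expresses, had 2453 and 1638 reads in replicates 1 and 3 of day 4, 4 in the shallow library, and none in the same 3. Levels of these genes cannot be compared between the days here.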
